A study of Mus musculus with 16 samples.

Results

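F-box proteins are the substrate-binding subunits of SCF ubiquitin ligases, and their transcripts are described here in mouse oocytes and eggs that carry or lack the proteasome subunit gene Psma7. The genes were taken by name: every entry of the expression table named Fbxo, Fbxl or Fbxw followed by a number, except Fbxo5 and Fbxo43. This gave 77 entries for 76 gene names, out of 28618 entries for 27987 names. The Fbxo family held 35 entries (34 names, with Fbxo32 listed in 2 entries), the Fbxl family 18 and the Fbxw family 24. One of the Fbxl entries, Fbxl12os, is a non-coding transcript on the strand opposite Fbxl12 and encodes no F-box protein. Fbxo18 is the gene that RefSeq now calls Fbh1.

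The libraries came from germinal vesicle (GV) oocytes, arrested in the first meiotic prophase, and from metaphase II (MII) eggs, collected after maturation and ovulation. Each stage was sampled from wildtype (WT) females and from Psma7 cKO females, which carry floxed Psma7 on both alleles (Psma7 fl/fl) and the Zp3-Cre transgene on a C57BL/6 background. The Zp3 promoter drives Cre in growing oocytes, so follicle cells keep the gene and so do oocytes before growth. There were 4 libraries in each of the 4 groups. All females were 3 to 4 weeks old and received 5 IU PMSG, followed 44 h later by the collection of GV oocytes or by hCG, and eggs were collected 14 to 16 h after hCG and freed of cumulus cells with 0.3% hyaluronidase. Each library was a pool of 5 oocytes according to the sample labels, while the methods of the study state a larger pool. The labels call the libraries biological replicates and do not say which females gave each pool. Levels are in FPKM (fragments per kilobase of transcript, scaled to the mapped fragments of the library), which is a share of the library, so that fewer transcripts per cell and a larger amount of other RNA cannot be told apart. The libraries were primed with oligo-dT, and a change in amount cannot be told apart from a change in the length of the poly(A) tail.

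Psma7 stood at 142 to 201 FPKM in WT GV libraries, 11.1 to 18.0 in cKO GV libraries, 97.7 to 172 in WT MII libraries and 13.6 to 59.9 in cKO MII libraries, lower in every cKO library than in every WT library of the stage. The depth recovered from the smallest values was 10.5 to 15.7 M fragments per library, at which 1 fragment on a transcript of 2000 bases is worth up to 0.0475 FPKM. All 13 oocyte markers reached a mean of 1 FPKM in every group, and their sum was 12823 to 17445 FPKM per library. The 16 cumulus and granulosa genes summed to 13.6 to 18.3 FPKM, Cyp19a1 being the highest, 2 or 3 of them reached 1 FPKM and 2 to 5 were at 0 in every library of a group. The 7 genes of other ovarian or blood cells that were in the table summed to 8.60 to 19.5 FPKM, Pecam1 being the highest.

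In an SCF ligase the cullin Cul1 joins the RING protein Rbx1 to the adaptor Skp1, Skp1 binds the F-box, and the rest of the F-box protein holds the substrate that is to be ubiquitinated. Families are named for that substrate-binding part: WD40 repeats in Fbxw proteins, leucine-rich repeats in Fbxl proteins, and other or no known domains in Fbxo proteins. Neddylation of the cullin switches the ligase on, the COP9 signalosome removes Nedd8 again, and Cand1 exchanges one F-box protein for another. In oocytes, SCF ligases act beside the anaphase-promoting complex in the protein turnover of meiotic maturation, and growing oocytes store the transcripts of many of their subunits. The mouse genome holds an array of Fbxw genes on chromosome 9 that is known for expression in the oocyte.

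Of the 24 Fbxw genes, 15 lay in that array, within 651207 bases of chromosome 9 (GRCm38, 109139454 to 109790660), all on the minus strand. In the order of their coordinates they are Fbxw21, Fbxw13, Fbxw20, Fbxw14, Fbxw28, Fbxw22, Fbxw16, Fbxw19, Fbxw23, Fbxw15, Fbxw24, Fbxw25, Fbxw18, Fbxw26 and Fbxw27. RefSeq (GRCm38.p6) gave promoters, from 250 bases before to 50 bases after the transcript start, for 57 of the 77 entries and for 12 of the 15 array genes, all but Fbxw13, Fbxw22 and Fbxw27. Fbxw23 stood apart among them, with 51.1% to 61.8% identity in its 11 pairs, while the 55 pairs of the other genes were 84.9% to 97.7% identical (median 91.6%). Identity, here and for coding sequences, is the share of equal letters among aligned bases. Gaps are left out, which raises it. A stretch of 34 bases was the same in 9 of the 12, and among all 27025 promoters, on either strand, it occurred in those 9. It is printed in capitals in the 200 bases before the start of 7 genes of that set, chosen because they differ in behaviour during maturation as described further on, from Fbxw14, which rose, and Fbxw28, which was not called, to Fbxw26, one of those that fell furthest.
Fbxw21 (chr9:109162023-109162222, minus strand): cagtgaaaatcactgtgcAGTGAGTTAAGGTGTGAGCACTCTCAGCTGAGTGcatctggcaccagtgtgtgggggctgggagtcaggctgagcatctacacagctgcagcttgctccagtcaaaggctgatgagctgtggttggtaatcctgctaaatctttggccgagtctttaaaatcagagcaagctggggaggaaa
Fbxw14 (chr9:109287677-109287876, minus strand): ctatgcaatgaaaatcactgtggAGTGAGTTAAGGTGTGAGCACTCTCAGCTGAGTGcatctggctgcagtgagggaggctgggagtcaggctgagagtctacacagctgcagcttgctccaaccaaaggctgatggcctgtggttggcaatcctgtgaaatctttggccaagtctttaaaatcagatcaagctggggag
Fbxw28 (chr9:109339660-109339859, minus strand): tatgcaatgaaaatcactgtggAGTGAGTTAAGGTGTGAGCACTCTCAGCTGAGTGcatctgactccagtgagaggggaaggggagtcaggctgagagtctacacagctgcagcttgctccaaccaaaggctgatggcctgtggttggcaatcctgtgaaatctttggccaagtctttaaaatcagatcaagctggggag
Fbxw15 (chr9:109568263-109568462, minus strand): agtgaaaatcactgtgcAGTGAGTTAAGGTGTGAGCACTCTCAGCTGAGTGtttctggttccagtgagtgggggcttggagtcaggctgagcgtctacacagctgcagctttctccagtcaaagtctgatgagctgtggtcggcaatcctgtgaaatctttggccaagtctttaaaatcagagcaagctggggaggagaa
Fbxw24 (chr9:109626060-109626259, minus strand): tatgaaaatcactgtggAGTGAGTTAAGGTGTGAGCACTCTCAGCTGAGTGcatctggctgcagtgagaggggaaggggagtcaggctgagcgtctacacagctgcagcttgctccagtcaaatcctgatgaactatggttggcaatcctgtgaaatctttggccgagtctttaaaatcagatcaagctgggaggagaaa
Fbxw18 (chr9:109702701-109702900, minus strand): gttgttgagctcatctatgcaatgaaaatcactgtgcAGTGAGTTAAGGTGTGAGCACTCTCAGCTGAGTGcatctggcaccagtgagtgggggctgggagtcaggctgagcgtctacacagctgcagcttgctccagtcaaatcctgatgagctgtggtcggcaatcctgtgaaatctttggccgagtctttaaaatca
Fbxw26 (chr9:109746090-109746289, minus strand): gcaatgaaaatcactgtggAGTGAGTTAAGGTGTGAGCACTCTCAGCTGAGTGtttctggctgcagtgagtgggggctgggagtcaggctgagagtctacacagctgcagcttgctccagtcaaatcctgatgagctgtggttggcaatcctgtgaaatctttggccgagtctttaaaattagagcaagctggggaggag
The capitals begin 163 to 183 bases before the start in these 7 genes. The 9 genes with the stretch include Fbxw14, which rose in WT, Fbxw28 and Fbxw19, which were not called, and 6 that fell. Among the 12 array promoters, all held the E-box CANNTG on either strand, against 72.1% of all promoters and 32 of the 45 promoters of the other F-box genes. The narrower form CAGGTG was in 0 of the 12, against 20.0% of all promoters. TAATTA and TAATTG were also in 0 of the 12, against 5.31% and 8.15% of all promoters. None held TATAAA, against 14.2% of all promoters and 0 of the 45. The GC box GGGCGG was in 1, against 35.9% of all promoters and 31 of the 45. As most of the 12 are near copies, these counts are not independent. These matches describe the letters of the windows and do not show binding.

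The transcribed parts were similar too. Coding sequences of the 14 array genes that GENCODE M21 lists as coding (Fbxw23 is a transcribed pseudogene there and coding in RefSeq) were 1395 to 1410 bases long, and pairs of them were 79.5% to 99.1% identical (median 84.0% over 91 pairs). Identity with Fbxw11, which lies outside the array, was 61.6% to 64.5%. Fbxw14 and Fbxw28 were the closest pair, at 99.1%, and shared 67.6% and 67.1% of their 50-base windows with other genes, against 5.77% to 15.4% in the other 13. How the authors assigned reads that match several genes is not given in the sources used here, so the split of FPKM between Fbxw14 and Fbxw28 is uncertain. The 3′ untranslated regions in the array were short, with a median of 58 bases against 724 for all coding genes and 911 for the other F-box genes. Those of 11 of the 14 were under 100 bases, and the longer ones belonged to Fbxw14 (348 bases), Fbxw22 (401) and Fbxw26 (389), of which the first pair rose during maturation and Fbxw26 fell. The letters TTTTAT or TTTTAAT, the core of the cytoplasmic polyadenylation element, were searched in the last 100 bases of each transcript. They were found in 0 of 14 array transcripts, 12 of 60 other F-box transcripts and 16.1% of 21877 coding genes. In the 11 array transcripts with 3′ untranslated regions under 100 bases, that window reaches into the coding sequence. The shares are therefore not like for like, and they were not tested against each other.

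The array supplied most F-box transcripts of the oocyte. Averaged over the 16 libraries, the 12 F-box entries with the highest FPKM were all array genes, and all 15 had a mean of at least 10 FPKM in each group. Their summed level was 12026 ± 1508 FPKM (SD, n = 4) in WT GV oocytes, 2.97% ± 0.31 of all FPKM in the library, and 8285 ± 871 FPKM in WT MII eggs, 2.09% ± 0.22. In the cKO the sum was 11561 ± 721 FPKM in GV oocytes and 9066 ± 1016 in MII eggs. The 35 Fbxo entries together came to 567 ± 34.0 FPKM in WT GV oocytes, the 18 Fbxl entries to 247 ± 29.1 and the 9 Fbxw genes outside the array to 49.9 ± 4.81. Within the Fbxw family, the median level in WT GV oocytes was thus 539 FPKM for the array and 4.87 FPKM for the genes outside it. These levels were not tested against each other.

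Fbxw24 was the most abundant, and ranked 20 of 28618 entries by mean FPKM over all libraries. It stood at 1978, 2308, 2404 and 2060 FPKM in the WT GV libraries and at 1720, 1755, 1468 and 2042 in WT MII eggs, so the stages overlapped. Fbxw15 stood at 1879, 2097, 2635 and 1891 FPKM in WT GV oocytes and at 504, 540, 475 and 655 in WT MII eggs. The 2 ranges lie far apart, and the gene went from the second highest of the array to the fifth. Fbxw14 moved the other way, from 1049, 1228, 1363 and 1125 FPKM to 1945, 1841, 1645 and 1927, which made it the highest of the array in WT eggs. Its near copy Fbxw28 stood at 1023, 1509, 1570 and 1128 FPKM in WT GV oocytes and at 1394, 1029, 1347 and 1756 in WT eggs. The lowest of the array was Fbxw25, with a mean of 40.1 ± 4.18 FPKM in WT GV oocytes. In WT GV oocytes the neighbours in the order of levels, such as Fbxw24 and Fbxw15 or Fbxw16 and Fbxw20, had overlapping ranges.

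**Figure D1:**
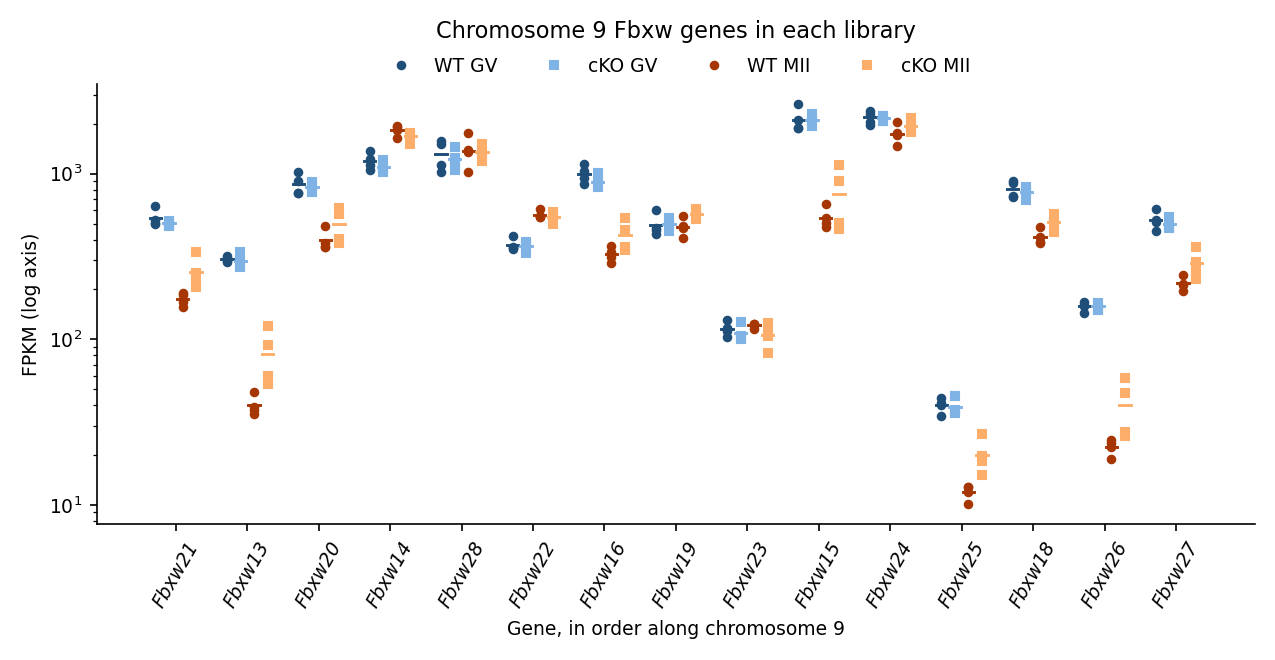
FPKM (log axis) of the 15 array genes, in their order along chromosome 9, in each of the 16 libraries; points are libraries and short lines are means of 4. In WT, Fbxw13 drops from 294 to 320 FPKM in GV oocytes to 35.4 to 48.3 in eggs, while Fbxw14 and Fbxw22 are higher in every egg library than in every GV library.

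Outside the array, Fbxo8, which carries a Sec7 domain beside its F-box, had the highest mean over the 16 libraries, and stood at 98.3, 111, 121 and 106 FPKM in WT GV oocytes. Fbxl6 was higher than Fbxo8 at that stage, with a mean of 147 ± 19.8 FPKM, and so was Fbxo34, with 124 ± 21.4. Fbxo34 shares 25.2% of its windows with pseudogenes. Fbxo28 followed at 78.3 ± 7.40 FPKM. Many F-box genes with well known substrates were at modest levels in WT GV oocytes. Fbxl5, the iron-regulated receptor for the iron regulatory proteins, stood at 34.0 ± 2.24 FPKM, Fbxo7, which also binds the proteasome regulator PI31, at 29.9 ± 3.43, Fbxo30 at 21.6 ± 1.34 and Fbxl20 at 20.4 ± 2.22. Fbxo11 had a mean of 17.9 ± 2.75 FPKM. Fbxw11, a paralogue of Btrc that recognises phosphorylated beta-catenin, was at 6.69 ± 1.80, Fbxw5 at 6.64 ± 1.98, Fbxw8, which works with Cul7, at 4.87 ± 1.74, and Fbxw7, the receptor for cyclin E and Myc, at 1.38 ± 0.137. At the bottom, 9 entries were under 0.1 FPKM on average. They included Fbxo32, the muscle atrophy gene known as atrogin-1, with at most 0.0412 FPKM in any library, Fbxo2 and Fbxo6, which bind N-glycans, with at most 0.0595, and Fbxo4, with at most 0.237.

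Between GV and MII in WT, F-box transcripts split into a larger group that fell and a smaller one that rose. The test was limma on log2 FPKM, with values under 1 set to 1, over all entries with a mean of at least 1 FPKM, and a transcript is called changed at a Benjamini-Hochberg adjusted p under 0.05. Of the 59 members tested, 13 rose, 37 fell and 9 were not called. Over all 10475 entries tested, 26.1% were called higher and 52.4% lower, and the members' shares of 22.03% and 62.7% are to be read against these. The median log2 difference was -0.66 for the members and -0.44 for all entries. Rescaling the libraries by their median ratio moved the median of all entries to 0.03, and the members then split into 20 higher and 27 lower and all entries into 4172 higher and 4181 lower, against 2738 and 5486 before. Values are therefore also given against the median of all entries, which 25 members exceeded and 34 did not reach. Only falls were over 3-fold in the group means, taken with values under 1 FPKM set to 1. They were seen in 19 of the 77 members, while 8.09% of all 28618 entries fell and 0.391% rose by as much. After rescaling, 10 members fell and 2 rose by as much. Entries under 1 FPKM in GV oocytes cannot fall with that floor. In WT GV oocytes 60 of the 77 members had a mean of at least 1 FPKM, while 10814 to 11084 of all entries reached 1 FPKM in a library. The 8.09% is thus a low yardstick for the members.

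The families differed in description, and no test compared them. Of 25 Fbxo transcripts tested in WT, 7 rose and 14 fell (median log2 difference -0.59). Of 11 Fbxl transcripts, 2 rose and 7 fell (median -0.59). Of 23 Fbxw transcripts, 4 rose and 16 fell (median -1.12), and the 8 outside the array had a lower median, -1.41, than the 15 inside it, -1.12. After rescaling, 10 Fbxo transcripts were higher and 10 lower, 3 and 4 of the Fbxl, and 7 and 13 of the Fbxw transcripts. The strongest falls came from all 3 families. Fbxo46 stood at 13.1, 15.2, 15.9 and 14.8 FPKM in WT GV oocytes and at 1.69, 1.68, 1.48 and 1.09 in eggs (log2 difference -3.33, SE 0.16, limma adjusted p = 1.26e-08). Fbxw17, on chromosome 13, went from 16.6, 17.4, 15.7 and 17.7 FPKM to 1.77, 2.27, 1.76 and 1.71 (-3.17, SE 0.12, adjusted p = 3.59e-09). No library of one stage came near the other in either gene. Fbxl2, whose protein is anchored to membranes by a lipid tail, went from 14.5 ± 2.43 FPKM to 2.31 ± 0.378 (-2.64, SE 0.16, adjusted p = 9.24e-08). Fbxw8 (-2.22), Fbxo18, which encodes a DNA helicase with an F-box (-2.01), and Fbxw5 (-1.97) also fell. Fbxo31, a receptor for cyclin D1, went from 3.38 ± 0.740 FPKM to 0.0911 ± 0.0476, and since values under 1 FPKM were set to 1 its log2 difference of -1.73 understates the ratio.

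**Figure D2:**
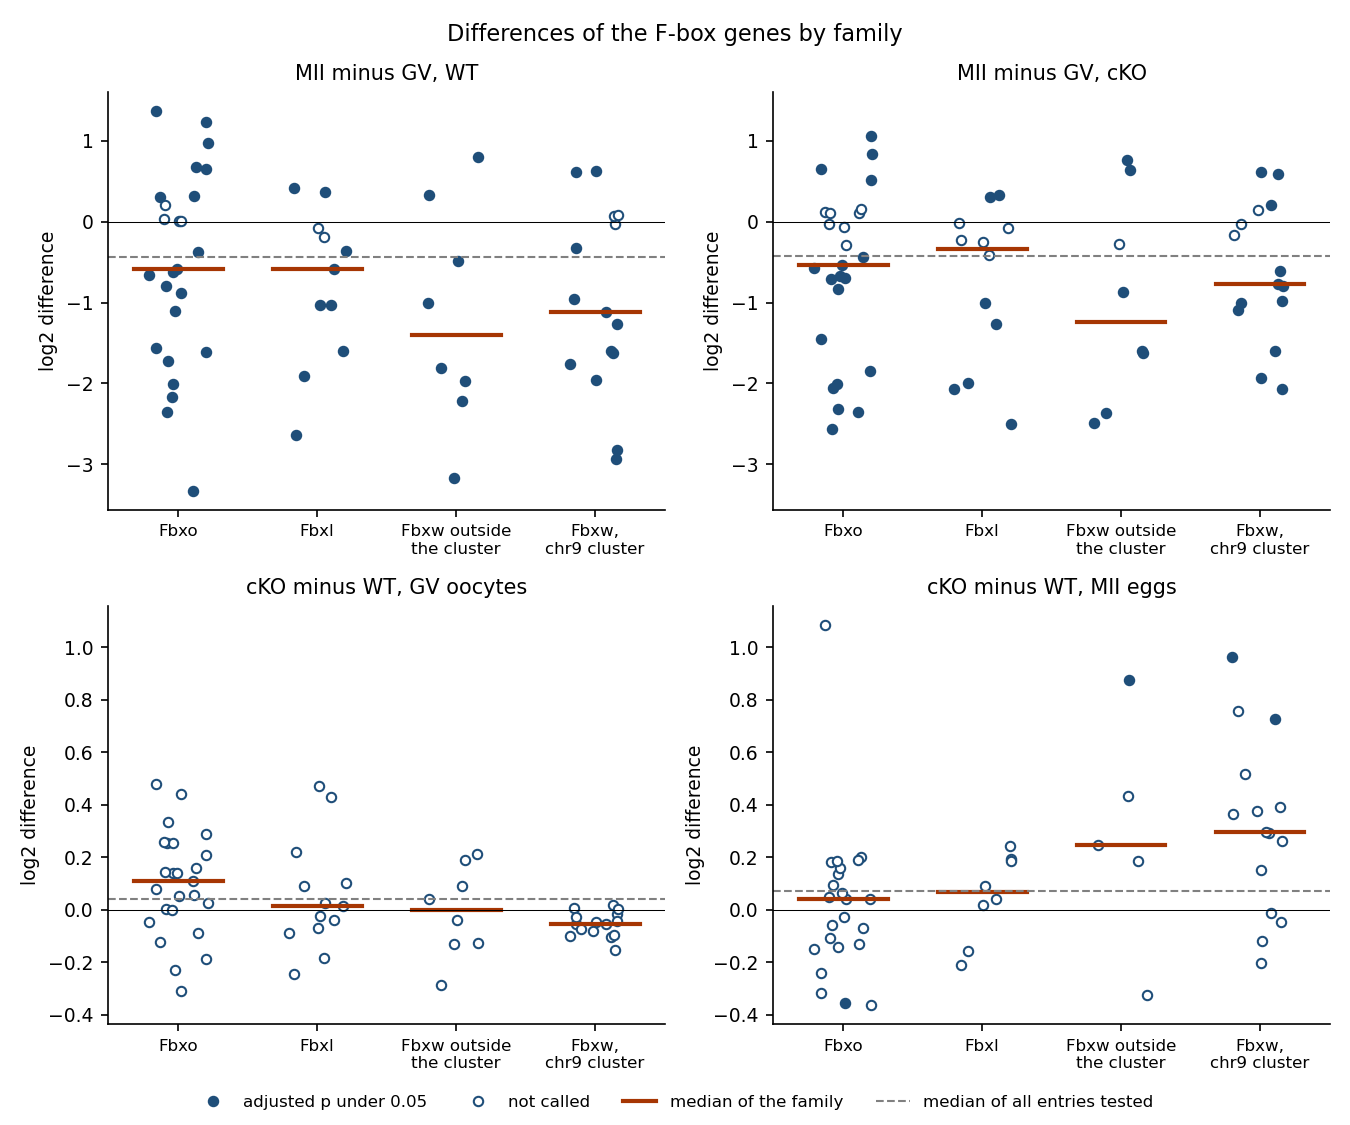
Log2 differences of the tested F-box transcripts by family, in the 4 comparisons of 2 groups; each point is a transcript, filled where the limma adjusted p is under 0.05, bars are family medians, and the dashed line is the median of all entries tested. In WT the Fbxw medians (-1.41 outside the array, -1.12 in it) lie below those of Fbxo and Fbxl (both -0.59); between genotypes most points are open and near 0.

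The transcripts that rose in WT were led by Fbxo15, an F-box gene expressed in pluripotent stem cells, with 2.73, 4.36, 2.76 and 4.06 FPKM in GV oocytes and 7.94, 13.2, 9.03 and 6.24 in eggs (log2 difference 1.37, SE 0.24, adjusted p = 0.000314). Fbxo11, the receptor for BCL6, rose from 16.6, 17.03, 22.03 and 16.1 FPKM to 44.4, 40.6, 40.2 and 42.3 (1.23, SE 0.11, adjusted p = 1.47e-06). Fbxo8 rose from 109 ± 9.66 FPKM to 213 ± 13.5 (0.97, SE 0.08, adjusted p = 1.44e-06). The stages did not overlap in any of the 3. Fbxw7 rose from 1.38 ± 0.137 to 2.40 ± 0.285 FPKM (0.80, SE 0.14), Fbxo33 by 0.67 (SE 0.14) and Fbxl5 by 0.36 (SE 0.09) on the log2 scale. Fbxo30 (-0.88), Fbxo28 (-0.66), Fbxo7 (-0.59), Fbxw11 (-0.49) and Fbxl20 (-0.36) fell, all by under 1 log2 unit. After rescaling, Fbxo30 was still called lower, Fbxo28 (-0.21), Fbxo7 (-0.14) and Fbxw11 (-0.03) were not called, and Fbxl20 turned to 0.09 and was not called.

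Within the array, neighbouring copies went different ways. In WT, 10 of the 15 genes fell, 2 rose and 3 were not called. Fbxw13 fell from 298, 310, 320 and 294 FPKM to 37.5, 48.3, 39.0 and 35.4, a log2 difference of -2.94 (SE 0.10, adjusted p = 1.42e-09). Fbxw26 fell by 2.83 (SE 0.10), Fbxw15 by 1.96 (SE 0.13), Fbxw25 by 1.76 (SE 0.11), Fbxw21 by 1.62 (SE 0.10) and Fbxw16 by 1.60 (SE 0.11) on the log2 scale. Fbxw27 (-1.27), Fbxw20 (-1.12) and Fbxw18 (-0.96) fell less. The genes that rose were Fbxw14 (0.63, SE 0.10, adjusted p = 0.000145) and Fbxw22 (0.61, SE 0.08, adjusted p = 4.34e-05), which lie on either side of Fbxw28 (0.08, SE 0.18, adjusted p = 0.705). Fbxw22 stood at 349, 355, 421 and 361 FPKM in WT GV oocytes and at 549, 556, 552 and 612 in WT eggs. The coding sequences of these 3 adjacent genes are more alike (92.3% to 99.1%) than most pairs of the array. As the split of FPKM between Fbxw14 and Fbxw28 is uncertain, so is the contrast between these near copies. Fbxw19 (-0.03) and Fbxw23 (0.07), a second pair of neighbours, were not called, and Fbxw24 fell by 0.33 (SE 0.11, adjusted p = 0.0185). Against the median of all entries 6 of the 15 lay above it: Fbxw14, Fbxw28, Fbxw22, Fbxw19, Fbxw23 and Fbxw24. After rescaling by median ratio Fbxw14, Fbxw28, Fbxw22, Fbxw19 and Fbxw23 were called higher in WT and Fbxw24 turned to 0.12 and was not called, so the direction of Fbxw19 and Fbxw24 depends on the scaling, and the 9 that fell by 0.96 or more were called lower in both.

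**Figure D3:**
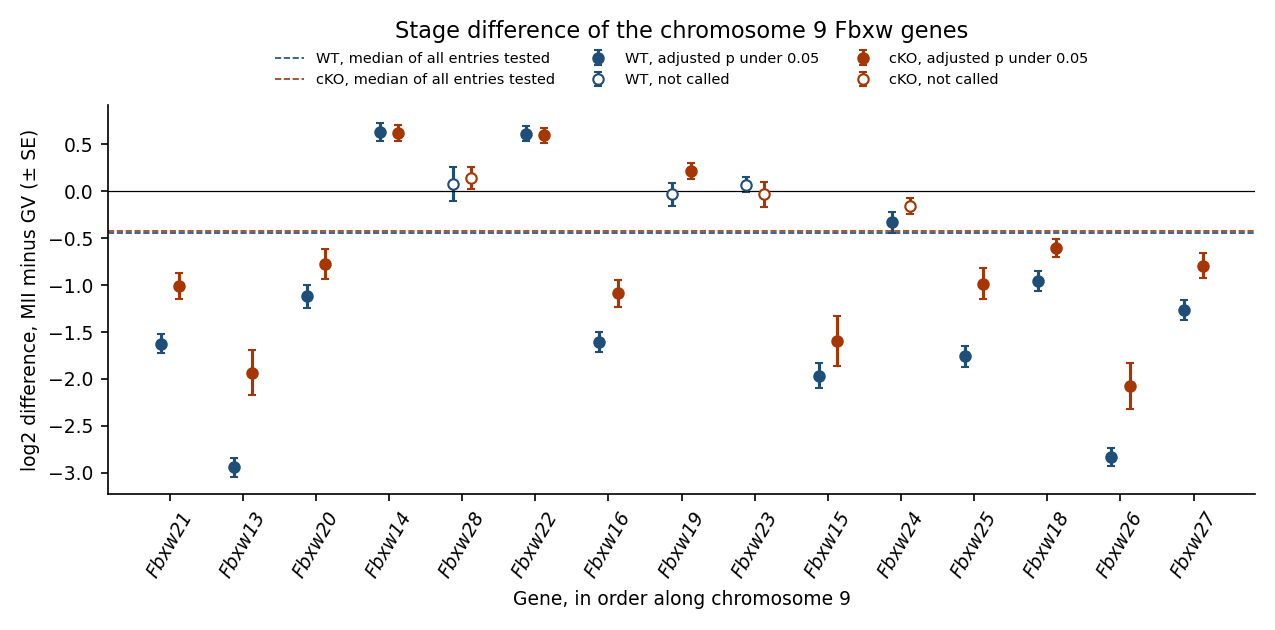
Log2 difference, MII minus GV (± SE, n = 4 per group), of the 15 array genes in WT and cKO, in chromosome order; filled points have a limma adjusted p under 0.05 and dashed lines are the medians of all entries tested (-0.44 and -0.42). In both genotypes Fbxw14 and Fbxw22 lie above 0 while genes a few positions away, such as Fbxw13 (-2.94 and -1.93), lie far below it.

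In the cKO the same comparison, on other libraries, gave 11 members higher and 33 lower of 60 tested, where 23.0% of all 10748 entries were called higher and 51.0% lower. The median was -0.59 for the members and -0.42 for all entries, and rescaling by median ratio changed the split to 19 higher and 25 lower among members and to 3919 and 4006 among all entries. Over 3-fold falls numbered 14 of the 77 members, with 6.44% of all entries lower and 0.321% higher by as much. The share of all entries again counts those under 1 FPKM in GV oocytes, which cannot fall with the floor. Of the members tested in both genotypes, 10 rose in both, 33 fell in both and 8 were called in neither, and none was called in opposite directions. Fbxo17, one of the glycan-binding group (-2.56, SE 0.21), Fbxl2 (-2.50, SE 0.13), Fbxw17 (-2.49, SE 0.19), Fbxw8 (-2.37, SE 0.14) and Fbxo46 (-2.35, SE 0.39) had the lowest log2 differences in the cKO with values under 1 FPKM set to 1. Without that floor, Fbxo31 was left at 6.44% of its GV level and Fbxl8 at 12.1%, against 17.5% for Fbxo17. Fbxo11 (1.06, SE 0.15), Fbxo8 (0.83, SE 0.10), Fbxw7 (0.76, SE 0.14), Fbxo15 (0.65, SE 0.20) and Fbxw4 (0.64, SE 0.13) rose most. In the array Fbxw13 fell by 1.93 (SE 0.24) and Fbxw26 by 2.07 (SE 0.25), Fbxw14 rose by 0.62 (SE 0.09) and Fbxw22 by 0.59 (SE 0.08). Fbxw19 was called higher in the cKO by 0.21 (adjusted p = 0.0482), a call kept in 8 of 19 alternative settings and in 2 of the 9 that leave out libraries (adjusted p 0.000292 to 0.134 over the 19), and Fbxw24 was not called (-0.16, adjusted p = 0.115). After rescaling, 6 array genes were higher and 7 lower in the cKO, with Fbxw24 at 0.26 and among the higher ones.

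In GV oocytes, no F-box transcript was called different between cKO and WT. Of the 61 members tested with limma, 0 passed and 4 had an unadjusted p under 0.05, and of all 11062 entries 0.0994% were called higher and 0.0181% lower (11 and 2, or 5 and 2 after rescaling). The median log2 difference was 0.00 for the members and 0.04 for all entries. The 3 members with the smallest p were Fbxo25 (0.44, SE 0.14, adjusted p = 0.281), Fbxo30 (-0.31, SE 0.10, adjusted p = 0.302) and Fbxl8 (0.47, SE 0.17, adjusted p = 0.354). Fbxo30 stood at 20.6, 23.1, 20.5 and 22.4 FPKM in WT and at 15.2, 18.0, 19.5 and 17.2 in the cKO. Its groups did not overlap. Among the 77 members, Fbxw17 was the only other with groups apart, higher in the cKO (means 19.2 against 16.8 FPKM in WT). The share over all entries was not counted. The 15 array genes differed by -0.15 to 0.02, closer to 0 than Fbxo (-0.31 to 0.48) and Fbxl transcripts (-0.24 to 0.47). Of the 15, 3 had a positive difference, 0 lay above the median of all entries, and after rescaling the range was -0.19 to -0.02. The difference was under 3-fold in every member, and 0.014% and 0.0105% of all entries were over 3-fold higher and lower.

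In MII eggs, 3 F-box transcripts were called higher in the cKO and 1 lower, all close to the threshold. These are 5.88% and 1.96% of the 51 members tested, and 6.53% and 1.49% of all 9492 entries were called higher and lower, so the members' shares are near the background. After rescaling the counts were 2 and 1 for members, and 497 and 259 for all entries against 620 and 141. Fbxw25 stood at 10.1, 12.9, 11.9 and 12.7 FPKM in WT eggs and at 18.3, 15.2, 26.8 and 19.7 in cKO eggs (log2 difference 0.73, SE 0.17, adjusted p = 0.0368). Fbxw17 stood at 1.77, 2.27, 1.76 and 1.71 FPKM in WT and at 3.63, 2.54, 4.90 and 3.02 in cKO (0.87, SE 0.21, adjusted p = 0.0407). Fbxw13 stood at 37.5, 48.3, 39.0 and 35.4 FPKM in WT and at 59.9, 53.4, 121 and 92.8 in cKO (0.96, SE 0.24, adjusted p = 0.0456). Each cKO egg library was above each WT egg library in these 3 genes, which were picked by the test on the same values. Of the 77 members, 7 had all cKO egg libraries above WT and 2 had all below. The share over all entries was not counted. All 3 genes were called lower during maturation in both genotypes. Fbxo33 was lower, at 16.9, 17.5, 15.3 and 14.8 FPKM in WT and 12.2, 11.6, 13.6 and 13.1 in cKO (-0.36, SE 0.09, adjusted p = 0.0474). With values under 1 FPKM set to 1, no member differed over 3-fold (Fbxo31 had means of 0.0911 FPKM in WT and 0.278 in cKO eggs, both under that floor), and 0.584% of all entries were higher and 0.00699% lower by as much.

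**Figure D4:**
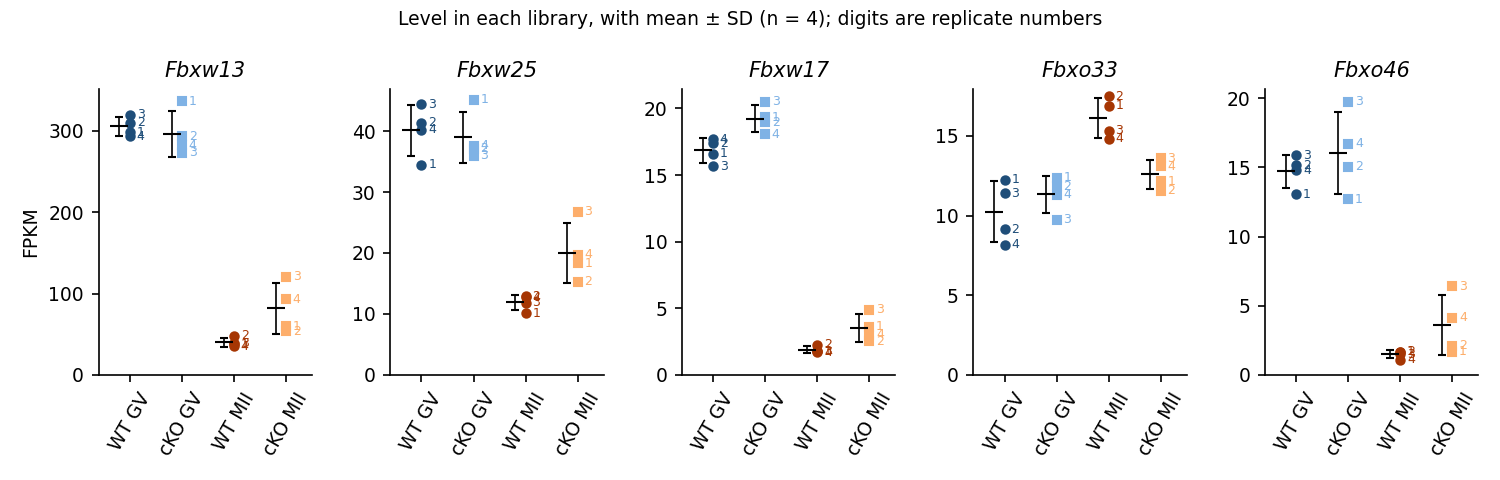
FPKM in each library of the 4 F-box transcripts called between genotypes in MII eggs and of Fbxo46, which was not called; points carry the replicate number and black bars are mean ± SD (n = 4). In cKO eggs replicates 3 and 4 are the highest for Fbxw13 and Fbxo46, and replicate 3 is the highest for Fbxw25 and Fbxw17.

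Across the array 11 of the 15 genes had a positive difference in eggs, with a median of 0.30 against 0.07 for all entries and 0.04 for the 36 tested members outside the array. By family the medians were 0.04 for Fbxo, 0.07 for Fbxl and 0.29 for Fbxw. Fbxw26 (0.76, adjusted p = 0.0906), Fbxw21 (0.52, adjusted p = 0.058), Fbxw27 (0.39, adjusted p = 0.093) and Fbxw18 (0.29, adjusted p = 0.0885) did not pass, nor did Fbxo46, whose difference of 1.08 (SE 0.40, adjusted p = 0.111) was the highest of the 51 members tested, with values under 1 FPKM set to 1. Fbxw14 (-0.12), Fbxw22 (-0.05) and Fbxw28 (-0.01), 3 adjacent genes that rose or were not called during maturation, had differences near 0. Fbxw19 and Fbxw23, which were not called in WT maturation either, differed by 0.26 and -0.20, the second being the lowest of the array. As a share of the level in GV oocytes of the same genotype, Fbxw13 was at 12.3%, 15.8%, 12.8% and 11.6% in WT egg libraries and at 20.2%, 18.0%, 40.8% and 31.3% in cKO egg libraries. Fbxw26 was at 14.2%, 14.9%, 11.9% and 15.5% in WT and at 17.4%, 16.4%, 37.2% and 30.0% in cKO. In both genes replicates 3 and 4 of the cKO were the highest. The same libraries stood apart for other transcripts, 397 that are not members and that fell over 10-fold in WT. Their summed level was 12.7%, 8.80%, 34.5% and 19.0% of its GV level in cKO egg libraries 1 to 4. In WT egg libraries it was 5.93% to 6.80%, a low share set by choosing the transcripts for their fall in WT. The gap between genotypes is therefore in part built in by that choice. With cKO replicates 3 and 4 left out, 0 members were called, while 219 of all 9331 entries (2.35%) were called higher and 32 (0.343%) lower. Fbxw13 then differed by 0.51 and Fbxw25 by 0.50. The part of these libraries' higher remainder in the F-box differences was not tested.

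The calls in eggs were the least stable of those made. Leaving out any one WT library, or cKO replicate 1 or 4, left 0 members called, leaving out cKO replicate 3 left 1 higher, and leaving out cKO replicate 2, which had the least RNA of the decaying transcripts left among the cKO eggs, gave 7 higher. The calls over all entries moved as well, against 620 called higher with all libraries. Without one of the WT libraries 3 to 109 entries were called higher. Without cKO replicate 1, 3 or 4 there were 166 (1.76%), 287 (3.06%) and 360 (3.80%), and without cKO replicate 2 there were 1024 (10.8%). The genotype by stage interaction, which asks whether the genotype difference in eggs departs from that in GV oocytes, called 0 of 59 members, with 12 at an unadjusted p under 0.05, while 1.07% of all 10615 entries were called higher and 0.188% lower. The smallest p belonged to Fbxw25 (0.77, SE 0.21, adjusted p = 0.0741), Fbxw13 (1.01, SE 0.27, adjusted p = 0.0761) and Fbxw21 (0.61, SE 0.18, adjusted p = 0.0914). Fbxw17 (0.68, adjusted p = 0.131) and Fbxo33 (-0.51, adjusted p = 0.144) did not pass either. A difference between the stages in the effect of genotype was thus not shown for any member, and without cKO MII replicate 2 the test called 5 members higher, with 605 of all 10678 entries (5.67%) higher, and without cKO MII replicate 1 it called 1, with 157 of 10655 (1.47%).

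The partners that turn F-box proteins into ligases were listed as 28 SCF, neddylation and COP9 signalosome genes, of which 27 were in the table and 25 were tested. In WT 6 rose and 14 fell during maturation (24% and 56%, near the 26.1% and 52.4% of all entries), and in the cKO 7 rose and 12 fell (28% and 48%, against 23.0% and 51.0%). After rescaling the counts were 10 and 10 in WT and 11 and 9 in the cKO. The falls were led by signalosome subunits: Cops6 stood at 129 to 157 FPKM in WT GV oocytes and 4.66 to 7.07 in WT eggs (log2 difference -4.73, SE 0.13), and Cops7a fell by 2.93 (SE 0.13) in WT. In the cKO, Cops6 fell by 3.49 (SE 0.51) and Cops7a by 2.18 (SE 0.12). The adaptor Skp1a was the most abundant partner, at 1936 ± 199 FPKM in WT GV oocytes and 2202 ± 196 in WT eggs. No partner was called between genotypes in GV oocytes (limma, 25 tested), and Cops7a (0.87, adjusted p = 0.0225) and Gps1 (0.51, adjusted p = 0.0451) were called higher in cKO eggs, 8% of those tested against 6.53% of all entries (after rescaling, 1 partner was called higher and 1 lower). Among the F-box genes known by other symbols, or left out by the naming rule, 7 entries were tested, of which 1 rose and 4 fell in each genotype during maturation (2 and 3 in WT and 3 and 3 in the cKO after rescaling) and 0 were called between genotypes at either stage.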

How the data were processed

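FPKM values of 16 libraries were used as the authors deposited them. Per the submitters' notes reads were aligned with TopHat2 2.1.1 and quantified with Cufflinks 2.2.1 on mm10. Strandedness and the treatment of multi-mapping reads are not given in the sources used here. ERCC RNA was added to the lysis buffer, but no spike-in scaling was made here. Values under 1 FPKM were set to 1, and log2 values were fitted with limma 3.58.1 (R 4.3.3, empirical Bayes with trend) on all entries with a mean of at least 1 FPKM, with Benjamini-Hochberg adjustment over all of them. The 4 comparisons of 2 groups used 8 libraries each and the interaction used 16. Ratios of group means over 3-fold were also counted. The fits were tested on simulated data. Positions and transcripts came from GENCODE M21 and RefSeq GRCm38.p6 (same coordinates as mm10). Python 3.11.15 was used for the rest. FPKM gives no counts, so no counting intervals are attached.

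The members, the partner list and the marker lists were chosen with earlier results of these data known. Named genes are members called between genotypes (or the 3 with the smallest p), the 5 highest and 5 lowest called in each stage comparison, the 10 most abundant, all array genes, a fixed list of well studied members (1 of them is not reported here), and the 2 partners changing most; other members given with a value, and Fbxo46 between genotypes, were chosen after their values were seen.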

Additional observations from a re-analysis of the deposited data

Results flagged for a closer look

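In 7 of the 112 groups of 4 libraries examined, 1 library stood apart from the other 3 by Dixon's criterion, and chance alone gives about 1 in 20. Fbxw14 was at 1521 FPKM in cKO MII replicate 1, below the other 3 libraries (1736 to 1764). Fbxw22 was at 421 FPKM in WT GV replicate 3 (others 349 to 361) and at 612 in WT MII replicate 4 (others 549 to 556). Fbxw23 was at 127 FPKM in cKO GV replicate 1 (others 100.1 to 104). Fbxo11 was at 22.03 FPKM in WT GV replicate 3 (others 16.1 to 17.03), Fbxw17 at 2.27 in WT MII replicate 2 (others 1.71 to 1.77) and Fbxw7 at 2.21 in cKO MII replicate 2 (others 1.79 to 1.84).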

How the results depend on the processing

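In cKO against WT eggs, the 3 members called higher and 1 called lower became 0 and 0 without the filter on low values, with the replicate block and with a fold over 2 required as well. Moderation without a trend also gave 0 lower, and all 16 libraries in one fit gave 7 higher and 0 lower. Over all entries, 354 were higher and 105 lower without the filter, 101 and 7 with the block, and 225 and 7 with the fold. Without a trend 415 were higher and 86 lower, and in one fit 1328 and 254 of 9492, so the member counts moved with the background. Leaving out 1 library gave 0 to 7 higher and 0 to 0 lower, with 3 to 1024 of all entries higher and 0 to 136 lower. Leaving out cKO MII replicates 3 and 4 together, chosen after seeing the data, gave 0 and 0, with 219 of all entries higher and 32 lower. The labels do not say whether the replicate numbers pair the libraries. Same-numbered libraries had deviations that correlated at -0.50 to 0.29, which shows no common pairing and cannot exclude one. The replicate block moved no other count of called members by more than 1.5 times. Members at an unadjusted p under 0.05 in GV oocytes went from 4 to 2 with it. Median-ratio rescaling gave 20 members higher in WT and 19 in the cKO during maturation, and 2 over 3-fold higher and 10 over 3-fold lower in WT. Requiring a fold over 2 left 2 higher in WT, and 1 higher and 21 lower in the cKO. Over all entries it left 801 higher in WT, and 631 higher and 3406 lower in the cKO. The interaction gave 0 to 5 higher on leaving out 1 library, with 37 to 605 of all entries higher. Of 278 recomputed counts 242 stayed within 1.5 times. Rescaling reversed Fbxw19 (0.42), Fbxw24 (0.12) and, among members outside the array, Fbxl20 (0.09) and Fbxo21 (0.08), both called lower before, in WT and Fbxw23 (0.39) and Fbxw24 (0.26) in the cKO during maturation. Leaving out 1 library moved Fbxw28 between -0.046 and 0.21 and Fbxw19 between -0.11 and 0.071 in WT, Fbxw23 between -0.12 and 0.083 in the cKO (-0.21 without cKO MII replicates 3 and 4), and Fbxw28 between -0.15 and 0.11 between genotypes in eggs, all across 0. Over the same settings and that without cKO MII replicates 3 and 4, where the lowest values arose, Fbxw20 lay between -0.0072 and 0.41 and Fbxw15 between -0.16 and 0.57 between genotypes in eggs. The cause of these shifts was not tested. At the lowest levels, under 0.1 FPKM, the depth gives a few fragments per transcript at most, and such members were not compared.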
